A study of Homo sapiens with 16 samples.

Results

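Human mitochondria carry their own small circular genome, and 37 rows of the deposited count table belong to it. These were all genes whose name starts with MT-, of 58721 genes in the table: 13 mRNA genes, 2 rRNA genes and 22 tRNA genes. Their transcripts were followed in 16 libraries from RT112, a luminal papillary bladder cancer line grown in RPMI medium with serum, and SCaBER, a basal/squamous line grown in DMEM with serum, so cell line and medium cannot be told apart. Each line was transfected for a short term with 10 nM (per the labels) of siFOXA1.1 or siFOXA1.2, which target the luminal transcription factor FOXA1, or of the control siRNAs siControl.1 or siControl.2. Every siRNA had 2 libraries per line, labelled as experiment batch replicates 1 and 2, and no untransfected cells were compared. Nothing in the labels says that the 2 libraries came from separate cultures beyond the batch number, so the p-values measure the spread between these libraries.

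The mitochondrial genome is transcribed from both strands as long precursor RNAs, by the polymerase POLRMT with the factor TFAM, and the tRNA genes that lie between most other genes mark the places where the precursors are cut. The mRNAs encode core subunits of the respiratory chain (complex I, III and IV) and of the ATP synthase (complex V), the rRNAs form the mitochondrial ribosome, and the tRNAs serve its translation. Most of the mRNAs then receive a poly(A) tail, bound by the LRPPRC and SLIRP proteins, and for several of them the tail also completes the stop codon. MT-ND6 is known as the exception without a stable tail. Library preparation began with oligo-dT priming at poly(A) and read the 3' end, so the counts are of RNA that could be primed in this way.

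Genes are named as in the deposited table, and positions are those of RefSeq on GRCh38.p14, chromosome MT. Of the 37 genes, 28 are annotated on the reference strand, read from the heavy-strand promoter region, and 9 on the opposite strand: MT-ND6 and 8 tRNA genes. The mRNA genes have no introns. Of the 13 mRNA genes, 6 had a length that is not a multiple of 3 (MT-ND1, MT-ND2, MT-CO3, MT-ND3, MT-ND4 and MT-CYB), which leaves an incomplete stop codon. MT-ATP6 shares its last base with MT-CO3, so the annotated length does not settle whether its own mRNA keeps a complete one. The last 40 bases of the mRNAs that the results turn on are shown first, 5′ to 3′ on the transcript strand, from the GENCODE transcript with the same gene identifier. Capitals mark the complete stop codon or the part of it that the genome encodes. They are shown so that the encoded ends of the mRNAs can be compared, and they are the ends of the annotated genes, not measured RNA ends.
MT-ND1 (complex I, chrMT:3307-4262, reference strand): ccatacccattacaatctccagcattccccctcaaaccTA
MT-ND2 (complex I, chrMT:4470-5511, reference strand): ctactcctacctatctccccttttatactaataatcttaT
MT-ND3 (complex I, chrMT:10059-10404, reference strand): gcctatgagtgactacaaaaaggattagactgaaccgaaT
MT-CYB (complex III, chrMT:14747-15887, reference strand): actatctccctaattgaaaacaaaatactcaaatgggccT
MT-CO1 (complex IV, chrMT:5904-7445, reference strand): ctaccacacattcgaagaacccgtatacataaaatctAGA
MT-ND6 (complex I, chrMT:14149-14673, opposite strand): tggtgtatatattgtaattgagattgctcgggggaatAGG
The end of the large rRNA and both tRNA genes that passed the test in the 2 lines are shown next, in lower case throughout. MT-TL1 begins at the base after the last base of MT-RNR2, and MT-TF ends at the base before MT-RNR1.
MT-RNR2 (large rRNA, chrMT:1671-3229, reference strand, last 40 bases): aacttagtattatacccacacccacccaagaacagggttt
MT-TF (tRNA for phenylalanine, chrMT:577-647, reference strand, whole): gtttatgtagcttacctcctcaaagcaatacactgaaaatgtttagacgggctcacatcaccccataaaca
MT-TL1 (tRNA for leucine, chrMT:3230-3304, reference strand, whole): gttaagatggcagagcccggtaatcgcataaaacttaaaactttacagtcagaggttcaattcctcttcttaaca

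FOXA1 was lowered in RT112 by siFOXA1.1, to 1.32 and 3.24 CPM, the count scaled to a common library total, against 18.2 to 35.0 CPM in the 4 control libraries (log2 fold change -3.44 ± 0.47 SE, edgeR adjusted p = 2.19e-05). With siFOXA1.2 it was at 9.18 and 16.0 CPM, below the lowest control library, but this did not pass the test (-1.10 ± 0.39, adjusted p = 0.205). In SCaBER FOXA1 stood at 0 to 2.43 CPM in every library, too low for the filter on low counts. The luminal markers GATA3, PPARG, ELF3 and UPK2 had higher medians in RT112 controls and the basal markers KRT5, KRT6A, KRT14, CDH3, CD44 and EGFR in SCaBER controls, while KRT20 was at 0 in the controls of both. Library totals ran from 4528513 to 7604581 counts. The Wilson 95% interval of the mitochondrial share of 1 library was at most ± 0.0339 percentage points, and that of a single rRNA or mRNA share at most ± 4.88% of its value (± 9.05% for MT-ND6), for counting error alone.

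In RT112, siFOXA1.1 went with a higher share of mitochondrially encoded counts. They made up 25.7% and 28.2% of the 2 siFOXA1.1 libraries. The siControl.1 libraries had 20.1% and 21.2%, the siControl.2 libraries 18.0% and 19.1%, and the siFOXA1.2 libraries 19.7% and 20.4%. Both siFOXA1.1 libraries therefore lay above all the other 6 RT112 libraries, whereas siFOXA1.2 lay within the range of the controls. In SCaBER the share was lower in all libraries and moved less: 11.9% in each siFOXA1.1 library, 10.9% and 12.1% with siFOXA1.2, 11.4% and 10.3% with siControl.1, and 11.0% and 10.4% with siControl.2. Because a share is relative to the rest of the library, more mitochondrial RNA per cell and less nuclear RNA per cell cannot be told apart in these bulk samples.

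**Figure D1:**
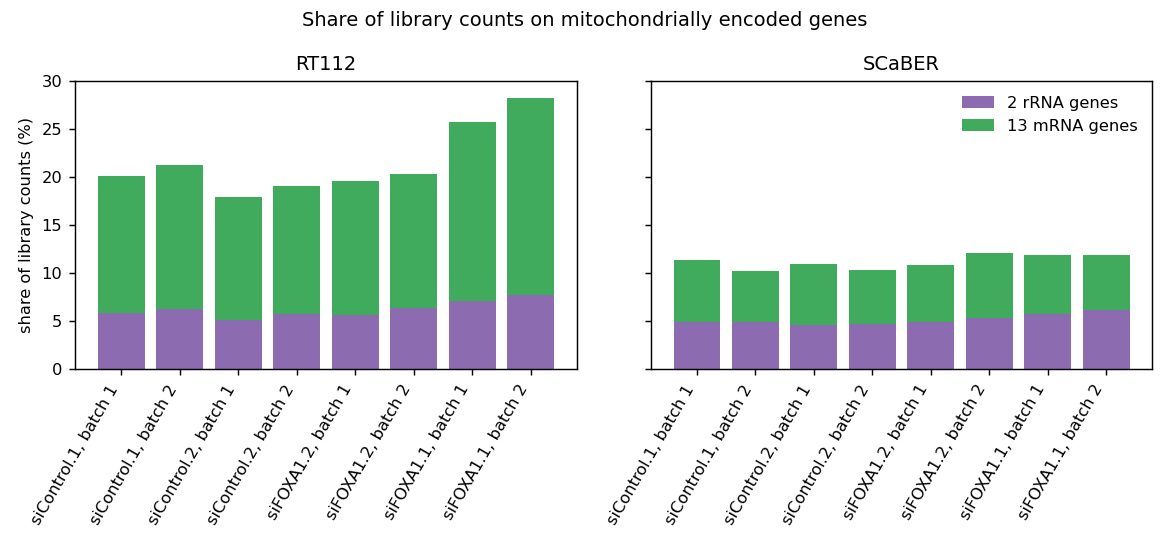
Stacked bars give the percent of library counts on the 2 mitochondrial rRNA genes and the 13 mRNA genes in each library, by cell line, siRNA and batch replicate (the tRNA genes, at most 0.0241% of a library, are too small to see). The siFOXA1.1 libraries of RT112 reach 25.7% and 28.2%, above the other RT112 libraries, and no SCaBER library exceeds 12.1%.

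The higher share under siFOXA1.1 in RT112 was made mostly of mRNAs. The mean of the 2 siFOXA1.1 libraries was 27.0%, against 19.6% in the 4 controls, a difference of 7.37 percentage points (6.68 within batch 1 and 8.06 within batch 2). The 13 mRNA genes gave 5.72 points of it, or 77.6%, the 2 rRNA genes 1.64 points, or 22.3%, and the 22 tRNA genes 0.0117 points. By transcript, the large rRNA MT-RNR2 gave the most, 1.38 points. MT-ND2 gave 1.06, MT-ND3 0.701, MT-ND1 0.700, MT-ATP6 0.632 and MT-CO2 0.618 points. MT-CYB, MT-CO3 and MT-ND4 added 0.512, 0.468 and 0.452 points, and the other mRNAs and MT-RNR1 at most 0.267 points each. These contributions had the same sign in both batches for every rRNA and mRNA gene, and MT-ND6 alone had a negative one (-0.00517 points).

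**Figure D2:**
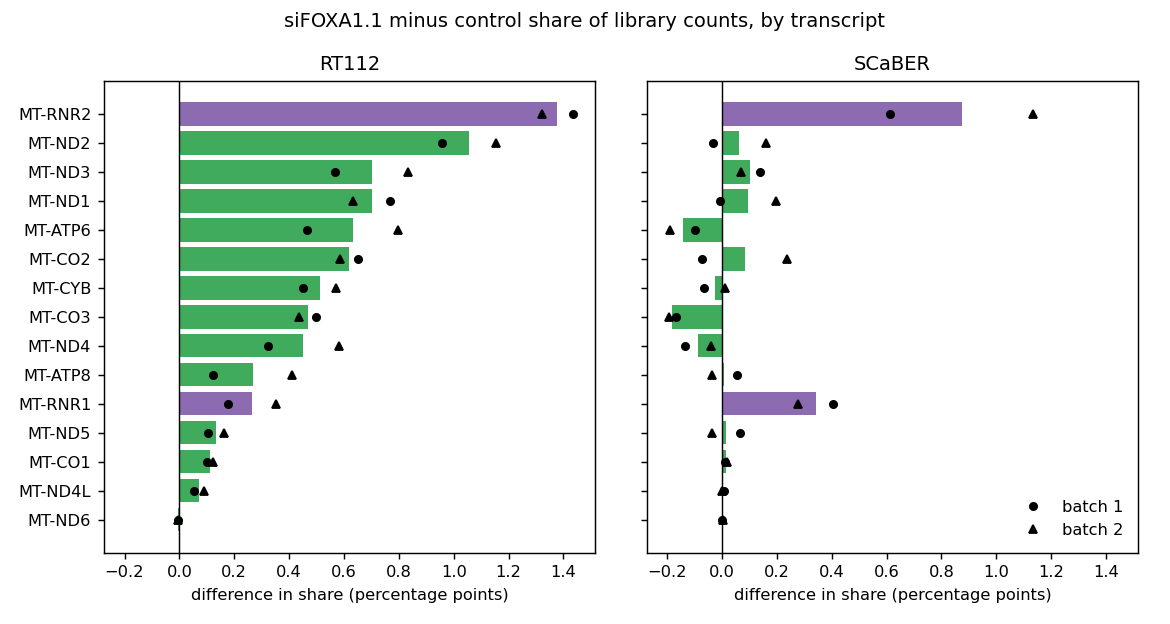
Bars give the siFOXA1.1 mean minus the mean of the 4 control libraries, in percentage points of library counts, for each rRNA (purple) and mRNA (green) gene. Circles and triangles give the same difference within batch 1 and batch 2. In RT112 both batches have the same sign for every gene and MT-RNR2 and MT-ND2 lead with 1.38 and 1.06 points. In SCaBER the 2 rRNA bars are the longest. There MT-CO3, MT-ATP6 and MT-ND4 are negative and MT-ND3 and MT-CO1 positive in both batches, and the other mRNA bars have batches on both sides of 0.

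A transcript that is abundant can give many points with a small fold change, so the changes were also tested per gene. Of the 37 genes, 24 passed the filter on low counts in RT112: both rRNAs, all 13 mRNAs and 9 tRNAs. Under siFOXA1.1, 18 of these rose and 2 fell at an adjusted p under 0.05, while 32.6% of all 11986 genes tested passed, 15.6% as higher and 17% as lower. The median log2 fold change of the 24 genes was 0.61, and that of all genes tested -0.01. The test was edgeR's quasi-likelihood F test with TMM scaling. With library totals alone the median of all genes moved to -0.15 and with TPM to -0.29, and the direction of each of the 20 genes was the same with these 2 scalings.

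Complex I, the NADH dehydrogenase that takes electrons from NADH, has 7 subunits encoded in mitochondria, and it held the largest changes among mRNAs. MT-ND1, a subunit of its membrane arm, made up 1.28% and 1.24% of the siFOXA1.1 libraries of RT112. It was 0.530% and 0.629% with siControl.1, 0.499% and 0.596% with siControl.2, and 0.603% and 0.595% with siFOXA1.2. The siFOXA1.1 values were thus about the same in both batches and lay well above the other 6, with no overlap (log2 fold change 1.30 ± 0.07, 2.46-fold, adjusted p = 5.02e-10). MT-ND2, another subunit of that arm, followed closely. It stood at 1.86% and 2.09% with siFOXA1.1, at 0.841% to 1.00% in the 4 control libraries and at 0.930% and 1.03% with siFOXA1.2 (1.24 ± 0.06, 2.37-fold, adjusted p = 2.27e-10). MT-ND1 and MT-ND2 were the mRNAs that at least doubled. The other subunits of complex I on the same strand rose by less.

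MT-ND4L, which shares 7 bases with MT-ND4, was at 0.185% and 0.229% with siFOXA1.1 and 0.125% to 0.139% in the controls (0.76 ± 0.09, adjusted p = 5.68e-06). MT-ND5 was at 0.391% and 0.464% against 0.257% to 0.333% (0.68 ± 0.08, adjusted p = 2.74e-06). Both sets lay above the controls without overlap. MT-ND3, the most abundant complex I transcript in RT112, was at 2.94% and 3.24% against 2.27% to 2.50% (0.51 ± 0.05, adjusted p = 7.63e-07). MT-ND4 was at 2.02% and 2.25% against 1.53% to 1.80% (0.48 ± 0.06, adjusted p = 4.12e-06). For MT-ND3 and MT-ND4 the step was therefore smaller relative to their level, although MT-ND3 gave as many points as MT-ND1.

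MT-ND6 fell, alone among the mRNAs. It is the only protein-coding gene on the opposite strand. Its share was 0.00776% and 0.00692% with siFOXA1.1, whereas siControl.1 had 0.0151% and 0.0130%, siControl.2 0.0109% and 0.0110%, and siFOXA1.2 0.0155% and 0.0113%. Both siFOXA1.1 libraries were below the other 6 (-0.62 ± 0.16, adjusted p = 0.00544).

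**Figure D3:**
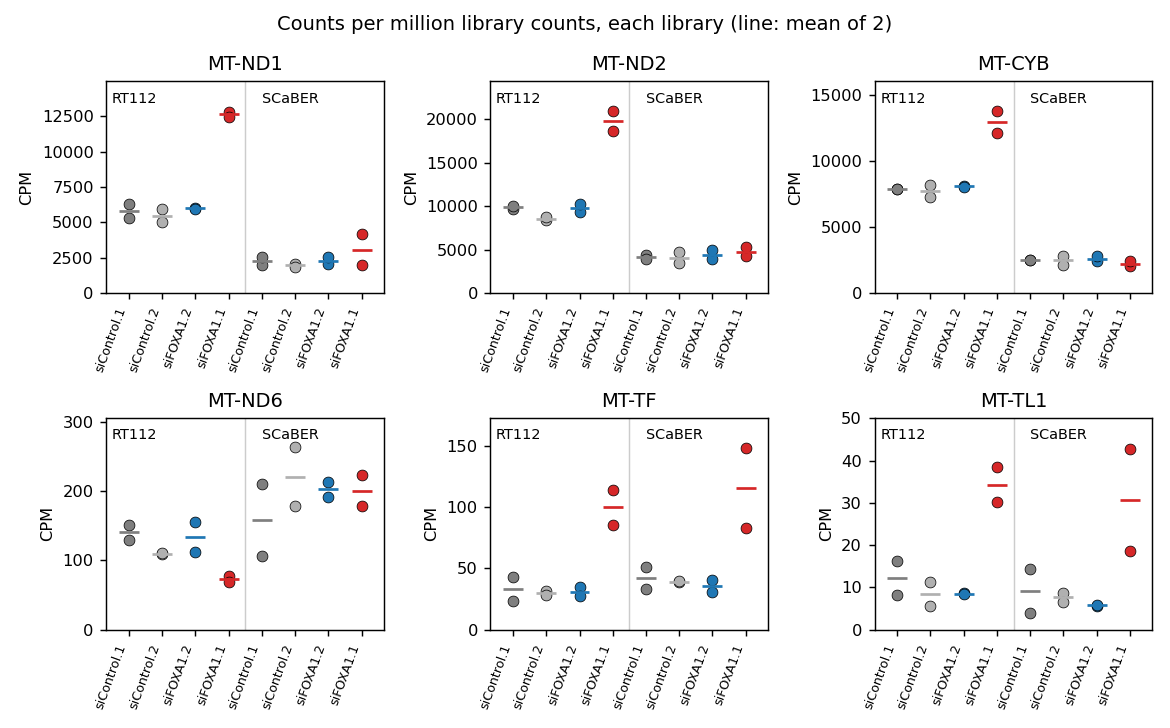
Points are single libraries and short lines the mean of 2, in CPM, for 6 genes by cell line and siRNA. In RT112 both siFOXA1.1 points (red) lie above all others for MT-ND1, MT-ND2, MT-CYB, MT-TF and MT-TL1 and below all others for MT-ND6. In SCaBER they do so for MT-TF and MT-TL1, while MT-ND1 differs between the 2 siFOXA1.1 libraries.

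The single complex III gene showed the third largest change of the mRNAs. MT-CYB, cytochrome b, was at 1.21% and 1.38% with siFOXA1.1, at 0.730% to 0.820% in the 4 controls and at 0.812% and 0.803% with siFOXA1.2, so that the siFOXA1.1 libraries stood apart (0.86 ± 0.07, 1.82-fold, adjusted p = 2.28e-08). The 3 subunits of complex IV, cytochrome c oxidase, rose by less and at different levels. MT-CO2 was at 2.12% and 2.19% with siFOXA1.1 against 1.45% to 1.66% in the controls (0.62 ± 0.06, adjusted p = 1.56e-07). MT-CO1, the catalytic subunit, was at 0.384% and 0.430% against 0.260% to 0.340% (0.60 ± 0.08, adjusted p = 8.16e-06). MT-CO3 was at 2.54% and 2.64% against 1.91% to 2.34%, the smallest rise of all mRNAs on the reference strand (0.43 ± 0.05, adjusted p = 5.14e-06). Of the ATP synthase subunits, which share one transcript and overlap by 46 bases so that reads in the overlap cannot be told apart, MT-ATP8 was at 0.943% and 1.25% against 0.742% to 0.900%, and MT-ATP6 at 2.69% and 3.10% against 2.10% to 2.51%. Their log2 fold changes were 0.55 ± 0.09 and 0.49 ± 0.06 (adjusted p = 8.68e-05 and 8.10e-06).

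The rRNAs rose as well, but by less than the mRNAs in sum. MT-RNR2, the large rRNA, was at 6.41% and 6.73% with siFOXA1.1, at 4.64% to 5.62% in the controls and at 5.14% and 5.72% with siFOXA1.2 (0.48 ± 0.05, adjusted p = 1.75e-06). MT-RNR1, the small rRNA, was at 0.738% and 0.974%, against 0.510% to 0.662% in the controls and 0.558% and 0.681% with siFOXA1.2 (0.67 ± 0.10, adjusted p = 4.25e-05). As a share of mitochondrial counts, rRNA was 27.8% and 27.3% in the siFOXA1.1 libraries and 28.6% to 30.2% in the controls of RT112. The mix within mitochondrial counts moved in the same way for single genes: MT-ND2 went from a mean of 4.69% of mitochondrial counts in the controls to 7.32%, MT-ND1 from 2.87% to 4.70%, and MT-RNR2 from 26.4% to 24.4%. Limma on TPM did not call MT-RNR1, MT-RNR2, MT-ATP6, MT-ATP8, MT-CO3, MT-ND3 or MT-ND4 (log2 fold changes 0.10 to 0.34, adjusted p = 0.0669 to 0.417), while MT-ND1, MT-ND2, MT-CYB, MT-CO1, MT-CO2, MT-ND4L, MT-ND5 and MT-ND6 passed in each of the 14 alternative settings.

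Very few counts came from tRNA genes, which are short and carry no long tail. They summed to 534 to 1639 counts per library in RT112 and 365 to 1254 in SCaBER. MT-TF, MT-TP and MT-TL1 had the most, with 5463, 2216 and 1515 counts over all libraries. MT-TN, MT-TK and MT-TR had 0 counts in every library, which allows a share of up to 3.94e-05% to 6.62e-05% per library, and MT-TG had 3 counts in 1 library. MT-TF was at 85.5 and 114 CPM with siFOXA1.1 in RT112 and at 23.1 to 43.1 CPM in the controls (1.80 ± 0.23, 3.49-fold, adjusted p = 1.09e-05). MT-TL1 was at 30.2 and 38.5 CPM against 5.70 to 16.3 CPM (1.89 ± 0.36, 3.70-fold, adjusted p = 0.000560). For these 2 tRNAs the siFOXA1.1 libraries lay above the other 6 without overlap.

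3 further tRNAs passed the test in RT112 on low counts. MT-TI was at 19.3 and 16.2 CPM against 2.64 to 10.1 CPM (1.54 ± 0.56, adjusted p = 0.0403), and MT-TM at 11.0 and 13.0 CPM against 3.20 to 5.92 CPM (1.56 ± 0.56, adjusted p = 0.0387). MT-TS1 had 1 count in each siFOXA1.1 library and 85 counts in the 4 controls. That is 0.147 against 2.94 CPM over the summed libraries, with an exact 95% counting interval of 0.00596 to 0.186 for the ratio, and it passed as lower (adjusted p = 0.0356). Each of these calls was lost in several settings. MT-TI was not called without either siFOXA1.1 library, siControl.1 replicate 2 or siControl.2 replicate 2 (adjusted p = 0.0788 to 0.135), nor with library totals alone (0.0621) or limma on TPM (0.0929). MT-TM was not called without any one of the 2 siFOXA1.1 and 4 control libraries (0.0509 to 0.165), nor with library totals alone (0.0608) or without the filter (0.0597). MT-TS1 was not called without any one of the 8 RT112 libraries (0.0501 to 0.117), without the filter (0.0744) or with the batch as a block (0.0531). The other tested tRNAs did not pass by edgeR with all libraries: MT-TT 1.32 ± 0.90, MT-TP 0.56 ± 0.30, MT-TQ 0.30 ± 0.60 and MT-TY -1.05 ± 1.01. MT-TP passed as higher without siFOXA1.1 replicate 1 (0.89, adjusted p = 0.0456), and MT-TY as lower with limma on TPM (-1.36, adjusted p = 0.000352). The 13 tRNAs under the filter in RT112 had at most 19 counts in any library of either line.

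In RT112 the calls differed between the 2 strands. Of 19 tested genes on the reference strand, 18 rose and 0 fell under siFOXA1.1, with log2 fold changes of 0.43 to 1.89. Of 5 tested genes on the opposite strand, 0 rose and 2 fell, with changes of -3.98 to 0.56. Over all genes tested, 15.6% passed as higher and 17% as lower, and the strands were not tested against each other. The 2 that fell were MT-ND6 and MT-TS1, and the call of MT-TS1, on very few counts, was lost in several settings, as given above. All 9 genes of the opposite strand together had 42.3 and 41.5 counts per 100000 mitochondrial counts in the siFOXA1.1 libraries, against 77.02 to 99.04 in the controls and 96.7 and 69.6 with siFOXA1.2. Both siFOXA1.1 libraries were below the other 6 by this measure. In CPM, the opposite strand was at 109 and 117 with siFOXA1.1 and at 139 to 199 in the controls, so this sum was lower relative to the whole library too. Most of its counts were of MT-ND6. The 8 tRNA genes of this strand together had 214 and 325 counts with siFOXA1.1 and 220 to 367 in the controls. As a set they showed no such step, so the lower sum was mainly that of MT-ND6. Most of the set was MT-TP, at 23.7 to 39.2 CPM with siFOXA1.1 against 19.8 to 28.0 CPM in the controls. On few counts, MT-TY (1.18 to 1.46 against 1.67 to 5.29 CPM) and MT-TC (0.147 to 0.293 against 0.453 to 2.13 CPM) lay below the controls. So did MT-TS1 (0.146 to 0.147 against 1.46 to 4.60 CPM) and MT-TA (0 against 0.13 to 0.93 CPM), while MT-TQ and MT-TE overlapped them. In SCaBER, where the opposite strand had 120 to 276 counts per 100000 mitochondrial counts over the controls, the siFOXA1.1 libraries were at 217 and 162, within that range. The rows of the opposite strand had few counts, 744 and 795 in the siFOXA1.1 libraries of RT112, and whether a few misassigned reads add to them was not tested.

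Along the reference strand, a run of neighbouring genes had large changes. The 5 tested genes from MT-TL1 to MT-ND2 (MT-TL1, MT-ND1, MT-TI, MT-TM and MT-ND2) had log2 fold changes of 1.24 to 1.89 in RT112, median 1.54. The 10 mRNA genes on the same strand from MT-CO1 on had 0.43 to 0.86, median 0.57. Large values were not confined to that stretch: MT-TF, which lies before MT-RNR1, was at 1.80, and MT-TT, which follows MT-CYB, at 1.32 without passing the test. This stretch was picked after the values were seen and carries no test. Between the 6 mRNAs with an incomplete stop codon by annotated length and the 7 with a complete one, the changes overlapped, with ranges of 0.43 to 1.30 and -0.62 to 0.76. MT-ATP6 was placed with the complete ones, although it shares its last base with MT-CO3.

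**Figure D4:**
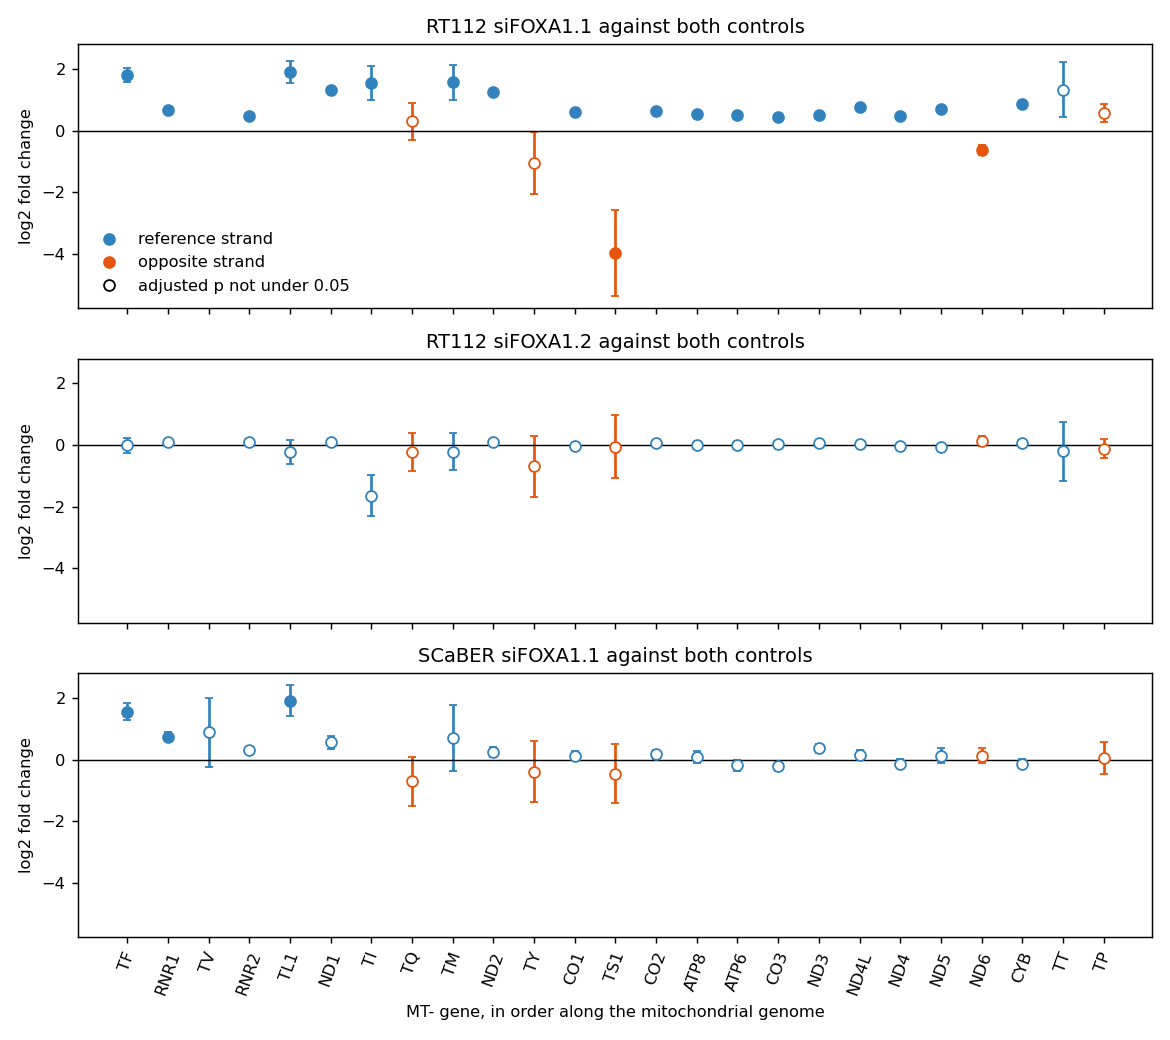
Each point is the edgeR log2 fold change of one tested gene, with an approximate standard error derived from the F statistic, in the order of the genes along the mitochondrial genome. Filled points had an adjusted p under 0.05, blue is the reference strand and orange the opposite strand. Under siFOXA1.1 in RT112 the filled blue points lie between 0.43 and 1.89, with the higher ones at MT-TF and from MT-TL1 to MT-ND2, while no point of RT112 under siFOXA1.2 is filled.

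With siFOXA1.2 the mitochondrial transcripts of RT112 showed no such step. None of the 24 tested genes passed (0 by edgeR, 1 at an unadjusted p under 0.05, 0 by DESeq2 and 0 by limma), beside 2.04% of all genes. The 13 mRNAs had log2 fold changes of -0.05 to 0.13, with MT-ND1 at 0.11 ± 0.08 and MT-ND2 at 0.11 ± 0.06. When the 2 siFOXA1 siRNAs were compared directly, 18 of the 24 genes differed, 17 higher and 1 lower with siFOXA1.1, beside 28.1% of all genes. MT-ND1 and MT-ND2 were higher by 1.19 ± 0.09 and 1.13 ± 0.07 (adjusted p = 3.06e-08 and 8.86e-09), and MT-ND6 was lower (-0.75 ± 0.18, adjusted p = 0.00437). This comparison and the one against the controls share the siFOXA1.1 libraries. Pooled over both siFOXA1 siRNAs, 0 genes passed in RT112 (7 at an unadjusted p under 0.05, 0 by DESeq2 and 0 by limma, beside 0.108% of all genes).

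The background between control siRNAs was smaller but not absent. In RT112 all 24 tested genes had higher values with siControl.1 than with siControl.2, with a median log2 fold change of 0.25. Of these, MT-CO3 (0.25 ± 0.06), MT-ND4 (0.26 ± 0.07) and MT-ND5 (0.38 ± 0.09) passed (adjusted p = 0.0333, 0.0468 and 0.0358), beside 2.36% of all genes. With the batch as a block 7 passed. The count was 0 without siControl.2 replicate 1, siControl.1 replicate 2, siControl.2 replicate 2 or either siFOXA1.2 library, 1 without siControl.1 replicate 1, and 9 without either siFOXA1.1 library. In SCaBER 0 of 23 passed between the controls (0 at an unadjusted p under 0.05, 0 by DESeq2 and 0 by limma, beside 0.0672% of all genes).

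In SCaBER, siFOXA1.1 went with higher rRNA and 2 higher tRNAs, but not with higher mRNAs as a class. The share of rRNA in the library was 5.81% and 6.21% with siFOXA1.1 and 4.64% to 4.95% in the controls, a difference of 1.21 points (1.02 within batch 1 and 1.41 within batch 2). The mRNA share was 6.06% and 5.70% against 5.33% to 6.42%, a difference of -0.0532 points with opposite signs in the 2 batches (-0.306 and 0.1999). Together with the tRNAs this made 1.17 points. The mRNA sum held changes in both directions. MT-CO3 (-0.169 and -0.193 points within batches 1 and 2), MT-ATP6 (-0.0967 and -0.189) and MT-ND4 (-0.135 and -0.0385) were lower in both batches. MT-ND3 (0.138 and 0.0694) and MT-CO1 (0.00907 and 0.0179) were higher in both, and the other mRNAs had opposite signs. None of the mRNAs passed the test. Of 23 genes tested, 3 rose and 0 fell, beside 4.47% of all genes as higher and 9.26% in either direction. MT-RNR1 was at 0.941% and 0.819% against 0.486% to 0.583% (0.74 ± 0.14, adjusted p = 0.00449). MT-TF was at 148 and 82.9 CPM against 32.9 to 51.4 CPM (1.55 ± 0.28, adjusted p = 0.00278). MT-TL1 was at 42.8 and 18.7 CPM against 3.90 to 14.3 CPM (1.91 ± 0.51, adjusted p = 0.0281). The siFOXA1.1 libraries lay above the controls for all 3 genes, but for MT-TF and MT-TL1 the 2 libraries were far apart.

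MT-TL1 lost its call in SCaBER without siControl.2 replicate 1 (adjusted p = 0.0876), siFOXA1.1 replicate 1 (0.304), siFOXA1.2 replicate 1 (0.0512), siControl.1 replicate 2 (0.0608) or siControl.2 replicate 2 (0.103). Without siFOXA1.1 replicate 1, 5 genes passed in place of 3: MT-TF, MT-RNR1, MT-ND1 (0.000318), MT-RNR2 (0.0164) and MT-CO2 (0.0499). MT-RNR2 was at 4.87% and 5.40% against 4.11% to 4.42%, above the controls without overlap, but did not pass with all libraries (0.30 ± 0.11, adjusted p = 0.105). This was not particular to siFOXA1.1: with siFOXA1.2 MT-RNR2 was at 44704 and 48014 CPM, also above the highest control at 44153 CPM. MT-ND1 was at 0.195% and 0.415% against 0.185% to 0.254%, so one siFOXA1.1 library lay among the controls and the other above them (0.56 ± 0.22, adjusted p = 0.135). The 13 mRNAs ranged from -0.22 (MT-CO3) to 0.56 (MT-ND1), and MT-ND6 was 0.13 ± 0.26. MT-ND3 was at 4617 to 5579 CPM with siFOXA1.1 against 3618 to 4240 CPM in the controls, without overlap, but did not pass with all libraries. With siFOXA1.2 MT-ND3 was at 4114 to 4873 CPM. Without siFOXA1.1 replicate 2, the log2 fold change of MT-ND3 under siFOXA1.1 was 0.53. The other tRNAs tested in SCaBER did not pass with all libraries: MT-TV 0.89 (adjusted p = 0.713 by edgeR), MT-TM 0.69 ± 1.07, MT-TP 0.05 ± 0.52, MT-TY -0.39 ± 0.99, MT-TS1 -0.46 ± 0.96 and MT-TQ -0.71 ± 0.79. With siFOXA1.2, 0 of 23 genes passed in SCaBER (0 at an unadjusted p under 0.05, 0 by DESeq2 and 0 by limma, beside 0.042% of all genes). Directly against siFOXA1.2, MT-TF, MT-RNR1 and MT-TL1 were higher with siFOXA1.1 (1.71 ± 0.34, 0.78 ± 0.17 and 2.43 ± 0.64, adjusted p = 0.0101, 0.0157 and 0.0426, beside 4.85% of all genes). This count was 0 without either siFOXA1.2 library, and 7 (4 higher, 3 lower) without siFOXA1.1 replicate 1. The pooled comparison gave 0 of 23 (2 at an unadjusted p under 0.05, 0 by DESeq2 and 0 by limma, beside 0.0084% of all genes).

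Whether the response to siFOXA1.1 differed between the lines was tested with an interaction term over all 16 libraries. Of 25 genes tested, 3 had a larger response in RT112, beside 3.14% of all 13701 genes: MT-CYB (0.98 ± 0.17, adjusted p = 0.00258), MT-ND2 (0.99 ± 0.18, adjusted p = 0.00543) and MT-CO3 (0.63 ± 0.15, adjusted p = 0.0320). In MT-CYB the response was 0.86 in RT112 and -0.13 in SCaBER, in MT-ND2 1.24 and 0.23, and in MT-CO3 0.43 and -0.22. MT-ND1 (0.72 ± 0.27, adjusted p = 0.160) and MT-ND6 (-0.77 ± 0.33, adjusted p = 0.247) did not pass, nor did the rRNAs (MT-RNR1 -0.08 ± 0.19 and MT-RNR2 0.16 ± 0.11) or MT-TF (0.24 ± 0.41). With the batch as a block 6 genes passed, MT-ND1, MT-ATP6 and MT-ND4 in addition (adjusted p = 0.0478, 0.0305 and 0.0336). With limma on TPM none of the 3 calls held (adjusted p = 0.0803 for MT-CYB, 0.116 for MT-ND2 and 0.384 for MT-CO3), and MT-TS1 alone passed, as lower (-3.73, adjusted p = 0.00847). The count was 8 without SCaBER siFOXA1.1 replicate 1 and 5 without SCaBER siControl.1 replicate 2. MT-CO3 lost its call without SCaBER siControl.2 replicate 1 (0.0737), SCaBER siFOXA1.1 replicate 2 (0.0569), RT112 siControl.1 replicate 1 (0.0801), RT112 siControl.2 replicate 1 (0.0794), RT112 siFOXA1.1 replicate 1 (0.0594) or RT112 siFOXA1.1 replicate 2 (0.125).

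Under the control siRNAs the 2 lines already differed. The mRNA genes made up 12.8% to 14.9% of the RT112 control libraries and 5.33% to 6.42% of the SCaBER ones, while the rRNA genes made up 5.15% to 6.29% and 4.64% to 4.95%. In the test of RT112 against SCaBER, 14 of 24 genes were higher in RT112 and 0 lower, beside 21.2% of all 12309 genes as higher and 43.4% in either direction. These were 12 of 13 mRNAs, MT-RNR2 and MT-TI. With limma on TPM 11 genes were higher and 2 lower, and MT-RNR2 was not among the higher ones. In TPM, MT-ND5 was level between the lines (3176 ± 297 in RT112 and 3174 ± 577 in SCaBER controls, SD, n = 4). MT-CO1 was at 3746 ± 320 and 3477 ± 270 TPM. The largest mRNA difference was in MT-ND3, at 2.27% to 2.50% of the RT112 and 0.362% to 0.424% of the SCaBER control libraries (2.57 ± 0.09, adjusted p = 5.16e-11). MT-ND4L (1.92 ± 0.12), MT-CYB (1.66 ± 0.10), MT-ND1 (1.43 ± 0.12) and MT-ND2 (1.18 ± 0.12) followed, and MT-RNR2 differed by 0.30 ± 0.08 (adjusted p = 0.00661). MT-ND6 was the mRNA with a negative difference (-0.59 ± 0.23, adjusted p = 0.0502). It passed as lower with DESeq2 (0.0299), library totals (0.0407), TMM over nuclear genes (0.0458), no filter (0.00190) and limma on TPM (0.00569), and without SCaBER siControl.1 replicate 2 (0.00197) or RT112 siControl.1 replicate 1 (0.0397), so the count of 0 lower does not hold in these settings. Limma also called MT-TF lower (-0.77, adjusted p = 0.00595). The call of MT-ND5 (0.40 ± 0.15, adjusted p = 0.0442) was lost without SCaBER siControl.2 replicate 1 (0.0754), SCaBER siControl.1 replicate 2 (0.106), SCaBER siControl.2 replicate 2 (0.0889), RT112 siControl.1 replicate 1 (0.110) or RT112 siControl.1 replicate 2 (0.129). MT-TI had 196 counts in the 4 RT112 controls and 1 count in the 4 SCaBER controls, a ratio of 157 with an exact 95% counting interval of 27.8 to 6216.

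Compared per length, in TPM as the authors deposited it, the order of the transcripts also differed between the lines. In RT112 controls MT-ND3 was highest at 135085 ± 1468 TPM (SD, n = 4), followed by MT-ATP8 at 78419 ± 4649. MT-RNR2 at 65079 ± 3394 and MT-ATP6 at 65012 ± 3526 came next and did not differ beyond their spread. MT-ND6 was lowest at 465 ± 60.1 TPM. In SCaBER controls MT-RNR2 led at 69948 ± 3637 TPM, MT-ATP8 had 48224 ± 7453, and MT-ND3 had 30005 ± 1587, level with MT-CO2 at 30142 ± 2956. MT-ND6 was lowest there too, at 919 ± 301 TPM. Since the kit reads the end of a transcript, dividing by length favours short genes such as MT-ATP8 and MT-ND3, within a line but not between the lines.

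**Figure D5:**
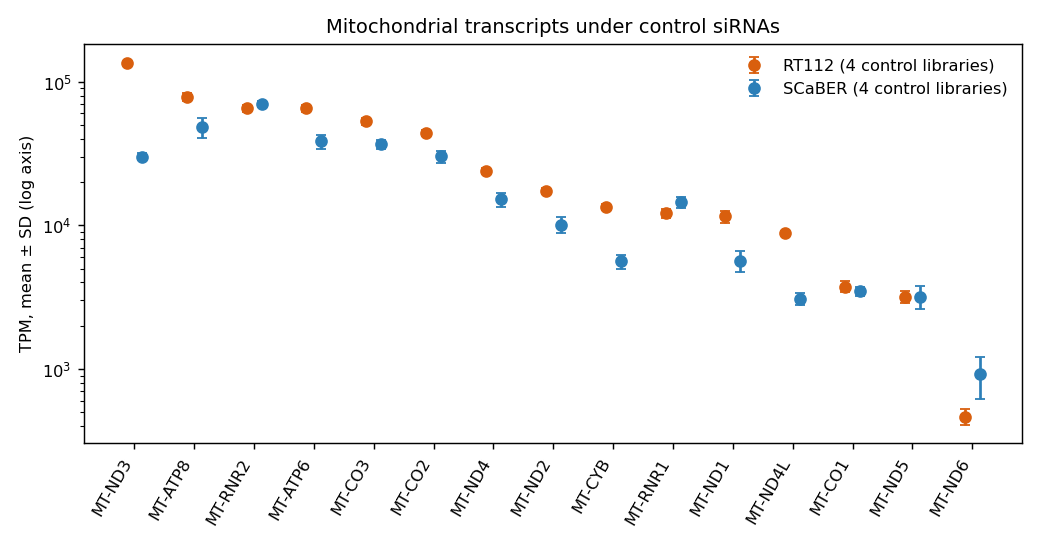
Points are the mean TPM of 4 control libraries per line, with the SD as error bar, on a log axis, for the rRNA and mRNA genes in the order of their level in RT112. The gap between the lines is widest at MT-ND3 (135085 against 30005 TPM), the rRNA points lie close together, and at MT-ND6 the SCaBER point is above that of RT112.

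Among the nuclear genes that serve the mitochondrial genome, calls went in both directions under siFOXA1.1 in RT112. Of 21 tested genes of mitochondrial transcription and DNA maintenance, 2 rose and 4 fell, beside 15.6% of all genes higher and 17% lower in this comparison, which also stand beside the counts of the other nuclear lists that follow. No count of these lists was tested against those shares, and none is read as a result about the list. The median log2 fold change of the transcription genes was 0.23 beside -0.01 for all genes. POLRMT (0.35 ± 0.27, adjusted p = 0.364) and TFAM (-0.29 ± 0.17, adjusted p = 0.210) did not pass. TOP1MT, the mitochondrial topoisomerase, fell (-1.80 ± 0.25, adjusted p = 2.31e-05). MTERF1, a termination factor that binds within MT-TL1, rose (1.78 ± 0.65, adjusted p = 0.0435), and MTERF2 passed as lower at 0 to 0.737 CPM against 2.64 to 7.63 CPM in the controls (adjusted p = 0.0289). Both MTERF genes were near the lower end of what was counted.

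Of 29 tested genes of mitochondrial RNA processing, polyadenylation and decay, 2 rose and 4 fell (median 0.02). LRPPRC (-0.19 ± 0.17, adjusted p = 0.413), SLIRP (0.02 ± 0.10, adjusted p = 0.901) and the poly(A) polymerase MTPAP (0.21 ± 0.25, adjusted p = 0.558) did not pass. PNPT1, an RNA-degrading phosphorylase, rose in RT112 (0.95 ± 0.20, adjusted p = 0.00134) and in SCaBER (1.49, adjusted p = 0.00274). REXO2, an exonuclease for very short RNAs, rose in RT112 (1.03 ± 0.15, adjusted p = 4.14e-05), and the RNA helicase DHX30 fell in RT112 (-0.78 ± 0.26, adjusted p = 0.0285) and in SCaBER (-1.19, adjusted p = 0.00733).

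Of 16 translation factors, 5 rose and 0 fell (median 0.22), led by MTRF1 (1.38 ± 0.50), GFM2 (1.23 ± 0.36) and GFM1 (0.79 ± 0.15), adjusted p = 0.0400, 0.0131 and 0.000427. Of 74 tested mitoribosomal proteins, 12 rose and 11 fell (median 0.04), with MRPL46 (1.67 ± 0.61), MRPL33 (1.21 ± 0.19) and MRPL48 (1.11 ± 0.18) as the largest changes. Of 13 biogenesis regulators, 2 rose and 1 fell (median -0.21): the orphan nuclear receptor ESRRA (0.68 ± 0.19) and GABPA (0.88 ± 0.32) rose, and NRF1 fell (-1.80 ± 0.56), adjusted p = 0.0108, 0.0419 and 0.0186. Of 18 stress response genes and chaperones, 4 rose and 4 fell (median -0.17). GDF15, a secreted stress cytokine, rose to 34.4 and 32.6 CPM against 3.73 to 7.25 CPM in the controls (2.84 ± 0.47, adjusted p = 0.000146), DDIT3, a stress-induced transcription factor, rose (1.502 ± 0.515, adjusted p = 0.0317), and the chaperonin HSPD1 fell (-1.28 ± 0.10, adjusted p = 3.72e-08).

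A few rows for nuclear copies of mitochondrial genes were higher as well. Of 407 such rows, 5 passed the filter in RT112 and 4 of them rose under siFOXA1.1, MTND2P28 (1.75 ± 0.32), MTND1P23 (1.74 ± 0.35) and MTATP6P1 (1.15 ± 0.09) with the largest changes. Together the 407 rows took 0.235% and 0.218% of the siFOXA1.1 libraries and 0.106% to 0.127% of the RT112 controls. Most of this was the single row MTATP6P1, at 1994 to 2221 CPM with siFOXA1.1 and 958 to 1202 CPM in the controls. The copies named above were thus not of equal weight in the sum. Nuclear copies resemble the mitochondrial genes in sequence, so the split of reads between a gene and its copies is uncertain, and their part in the result was not tested. The 10 nuclear genes with the most counts took 2.88% and 2.94% of the siFOXA1.1 libraries and 2.88% to 3.37% of the RT112 controls, within the same range.

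With siFOXA1.2 in RT112, where 2.04% of all genes passed, 0 genes of the 7 lists passed by edgeR (17 at an unadjusted p under 0.05). With siFOXA1.1 in SCaBER, where 9.26% of all genes passed, 1 of 29 processing genes rose and 2 fell, 2 of 18 stress genes and chaperones rose and 4 fell, 1 of 74 mitoribosomal proteins rose and 3 fell, and 1 of 12 biogenesis regulators fell. HSPD1 was among those that fell (-0.89, adjusted p = 0.0220). The 21 transcription genes, 16 translation factors and 6 nuclear copies tested in SCaBER had 0 calls by edgeR (4 at an unadjusted p under 0.05).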

How the data were processed

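The 16 libraries were made with the Lexogen QuantSeq FWD 3' kit, without molecular identifiers. Per the labels and the submitters' processing notes, the authors trimmed reads with TrimGalore 0.6.2 (minimum quality 20, minimum length 10) and aligned them with STAR 2.6.1a to hg38 with GENCODE 29. Strandedness was set to auto, and its outcome is not given in the sources used here. The deposited count table holds whole-number counts per gene, unnormalized. The TPM table was also deposited by the authors, and it divides by gene length although reads come from the 3' end. No column was left unmapped (0).

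Counts were tested with edgeR 4.0.16 in R 4.3.3 (quasi-likelihood F test, TMM, filterByExpr, Benjamini-Hochberg over all genes tested, threshold 0.05), with all 8 libraries of a line in a fit (the 8 control libraries for RT112 against SCaBER, all 16 for the interaction) and 12 contrasts in all. The script was tested on simulated data with changes in well-counted genes only and less spread than edgeR estimated here. That test does not cover calls on low counts. The SE of an edgeR log2 fold change was taken as its absolute value divided by the square root of F. It is an approximation that edgeR does not itself report. Shares are percent of library counts, with no test. Intervals and floors (3 counts) cover counting error only. Library totals ran from 4528513 to 7604581. Alternatives were DESeq2 1.42.0, library totals, TMM over nuclear genes, no filter, limma 3.58.1 on log2(TPM + 1), the batch number as a block, and leaving out each library. The labels call the replicate number an experiment batch, which pairs the libraries, and same-numbered libraries correlated by -0.02 to 0.01 in RT112 and 0.02 to 0.20 in SCaBER in their deviations from group means.

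All MT- genes were described: each rRNA and mRNA with values, tRNAs by counts with those named that passed the filter or had the highest counts. From the nuclear lists the text names POLRMT, TFAM, LRPPRC, SLIRP, MTPAP, PNPT1 and up to 3 called members per list with the largest change in RT112 under siFOXA1.1. The members and lists were chosen with earlier results of these data known. Positions are from RefSeq and sequences from GENCODE transcripts matched by gene identifier, 37 of 37. Reads shared with nuclear copies or overlapping genes make the affected values uncertain.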

Additional observations from a re-analysis of the deposited data

Results flagged for a closer look

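In SCaBER, 1 library lay far from the other 3 in a pair of sets of 4. MT-ND3 was at 3618 CPM in siControl.1 replicate 2, while the other control libraries had 4168 to 4240 CPM. MT-ATP8 was at 3138 CPM in siFOXA1.1 replicate 2, while the other siFOXA1 libraries had 4587 to 4865 CPM. These were 2 of 72 sets of libraries examined in this way, and chance alone flags about 1 in 20.

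The response to siFOXA1.1 differed between RT112 and SCaBER in 3 genes by the edgeR interaction term. The difference in log2 fold change was 0.99 for MT-ND2 (adjusted p = 0.00543), 0.98 for MT-CYB (adjusted p = 0.00258) and 0.63 for MT-CO3 (adjusted p = 0.0320), each larger in RT112.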

How the results depend on the processing

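The call counts of RT112 siFOXA1.1 stayed within 17 to 20 genes in all settings but limma on TPM (13). In RT112, siControl.1 against siControl.2 gave 0 genes with library totals, 9 without the filter and 1 with limma, and 0 to 9 without single libraries. SCaBER siFOXA1.1 gave 1 with limma and 2 to 5 without single libraries, and against siFOXA1.2 1 and 0 to 7. Pooled siFOXA1 in SCaBER gave 1 without the filter. The difference between lines in the siFOXA1.1 response gave 5 genes with DESeq2, 8 without the filter, 1 with limma (MT-TS1, lower, with the other 3 calls lost), and 2 to 8 without single libraries. MT-RNR2 in RT112 against SCaBER turned to -0.10 (adjusted p = 0.489) with limma on TPM. The causes were not tested.

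With the batch as a replicate block, the counts were 7 for the RT112 controls and 6 for the difference between lines, and no other count moved by over 1.5 times. In the block 19 genes passed in RT112 under siFOXA1.1.

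Scaling moved the calls over all genes. Of the genes called in RT112 under siFOXA1.1, 47.9% were higher, against 36.9% with library totals and 21.3% with TPM. For RT112 against SCaBER the split went from 48.9% to 28.6% with TPM, and for the difference between lines from 41.6% to 30.6% with library totals and 14.4% with TPM.

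As a share of TPM, mitochondrial genes took 55.1%, 52.4%, 64.3% and 54.3% in RT112 (siControl.1, siControl.2, siFOXA1.1, siFOXA1.2) and 31.6%, 32.0%, 34.7% and 34.2% in SCaBER. Without the rRNA genes the count shares were 15.5%, 13.8%, 21.1% and 14.9%, and 6.19%, 6.30%, 6.28% and 6.71%. Without the 10 nuclear genes with most counts they were 20.7% for RT112 siFOXA1.2, and 11.1% and 12.4% for SCaBER siControl.2 and siFOXA1.1. Depth limits the tRNA genes most.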
